A study of Drosophila melanogaster with 6 samples.

Results

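The transcripts described here were low in control ovaries and close to the wild-type level in ovaries with ectopic JAK/STAT and EGFR signaling. They were chosen by their log2 ratios to a wild-type ovary reference, where 0 is the reference level and 1 is a 2-fold difference. A probe was a member if its mean log2 ratio was at least 1 higher in ectopic expression than in control ovaries, each of the 3 ectopic expression arrays exceeded each of the 3 control arrays, and its ectopic expression mean lay between -0.5 and 0.5. Its Cy5 signal also had to be well above background on all 3 ectopic expression arrays. Of 32162 probes, 37 met the rule. They belong to 33 of the 25857 identifiers on the array. Since the rule used these log ratios, the difference between the genotypes is given for the members as a description and is not tested.

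RNA of whole Drosophila melanogaster ovaries was labeled with Cy5 and hybridized to 6 Agilent oligonucleotide arrays, 3 per genotype, beside Cy3-labeled RNA pooled from wild-type OreR ovaries. The 3 slides each carried 1 control and 1 ectopic expression array of the same replicate number, and the dyes were not swapped. Control females were GAL80TS/+ ; GR1-GAL4/TM6B and ectopic expression females were GAL80TS/+ ; GR1-GAL4/UAS-Unpaired, UAS-lambdatorpedo. Both genotypes came from crosses at 18°C, were 5 to 8 days old and yeast fed, and were held at 29°C for 16 h before dissection, whereas the yeast-fed OreR females were kept at 25°C. Several ovary pairs were pooled for each preparation. The control thus differs from the reference in the driver, GAL80TS, the TM6B balancer, the temperature and the dye, whose parts cannot be told apart. The ectopic expression ovaries shared the driver, GAL80TS, the heat and the dye with the control. They carried the UAS chromosome in place of TM6B, so the parts of the transgenes and of the balancer cannot be told apart. The labels call the arrays biological replicates.

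The follicle cells form an epithelium around the germline cyst of each egg chamber. GR1-GAL4 drives UAS transgenes in these cells, and GAL80TS is a temperature-sensitive repressor that holds GAL4 inactive in the cold. Unpaired is the ligand of the Drosophila JAK/STAT pathway, and lambda-torpedo is a constitutively active form of the EGF receptor. Signaling through both receptors specifies the posterior follicle cells, which send the signal that repolarizes the oocyte. Because whole ovaries were profiled, fewer cells of a type and less RNA per cell cannot be told apart.

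The 37 members had control means between -1.64 and -0.55 on the log2 scale (median -0.98), or 32.0% to 68.2% of the reference (median 50.6%). Their ectopic expression means lay between -0.36 and 0.49 (median 0.15), or 78.1% to 141% of the reference (median 111%). The difference between the groups ranged from 1.00 to 1.94 on the log2 scale, with a median of 1.11, which is a fold of 2.16. All 37 members lay below the reference on all 3 control arrays, and 14 of them were at least 2-fold below it on every control array. On the ectopic expression arrays 12 members lay above the reference on all 3 arrays and 7 below it on all 3, while 16 had arrays on both sides. The remaining 2 had an array at exactly 0. The ectopic expression mean was above the reference for 28 members and below it for 9, and with the arrays only centred on their median these counts were 36 and 1.

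**Figure D1:**
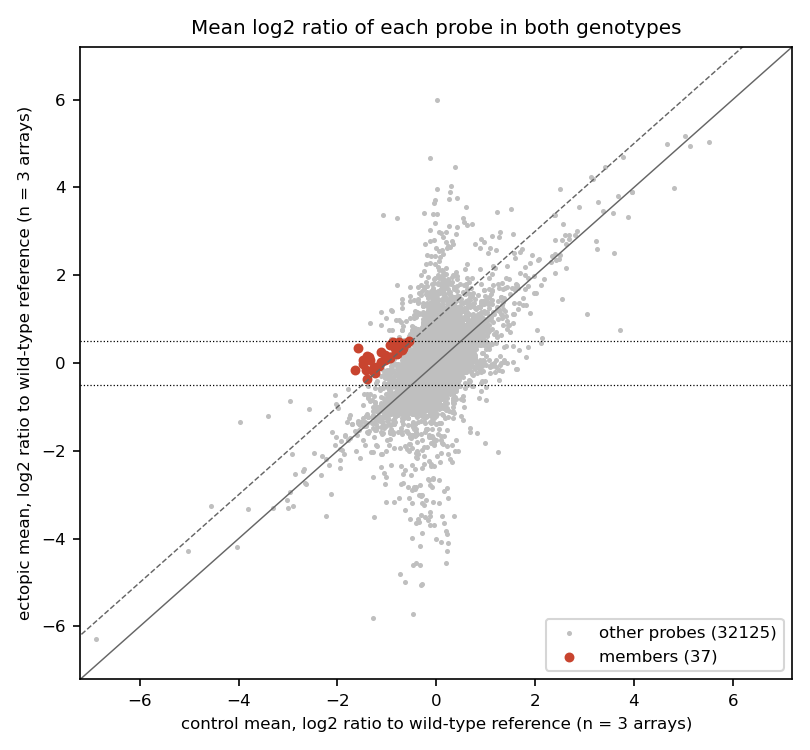
Mean log2 ratio to the wild-type reference of each of the 32162 probes in control ovaries (x axis) and ectopic expression ovaries (y axis), each over 3 arrays. Red points are the 37 members, the dotted lines mark ectopic expression means of -0.5 and 0.5, the solid line marks equal means and the dashed line a difference of 1. The members fill the corner that the rule defines, with control means between -1.64 and -0.55.

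The members were a minority both of the probes that were higher in ectopic expression ovaries and of those that were low in the control. Of 420 probes that met the requirements on size, separation and detection, 375 had ectopic expression means above the band of -0.5 to 0.5, 37 (8.81%) lay within it, and 8 lay below it. The median control log2 ratio of the 375 probes was 0.00, against -0.98 for the members, a contrast that the choice by level fixes. Of the 930 probes (2.89% of all) with a control mean of -0.5 or less, 567 also lay below the band in ectopic expression ovaries and 32 lay above it. The other 331 were within the band, and 294 of these were not members, as their difference was under 1. With an adjusted p of 0.05 and a minimum fold of 2 in limma, 419 probes (1.3%) were called higher in ectopic expression ovaries. All 37 members were among them, a count that follows from the rule. With median centring of the scanner values 366 probes were called higher, 14 of the members among them. With the log ratio of the scanner software 718 were called higher, 24 of the members among them.

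The reference level depends on how the arrays were scaled. The authors' values were normalized by loess, which removes a trend of the ratio with intensity. When the scanner values were only centred on each array's median, the median of the members was -0.55 in control and 0.50 in ectopic expression ovaries. In that scaling 36 of the 37 members had a control mean below 0, and 18 still had an ectopic expression mean within the band while 19 lay above it. The groups did not overlap for 34 members. The median difference of all probes was 0.04 in that scaling and -0.003 in the deposited values. In the other 6 treatments of the values, between 31 and 37 members kept an ectopic expression mean within the band. All 37 kept the separation of the groups. The rule had required this separation in the deposited values, where 13.6% of all probes showed it, so keeping it is largely built in. The share of all probes under the other treatments was not counted.

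**Figure D2:**
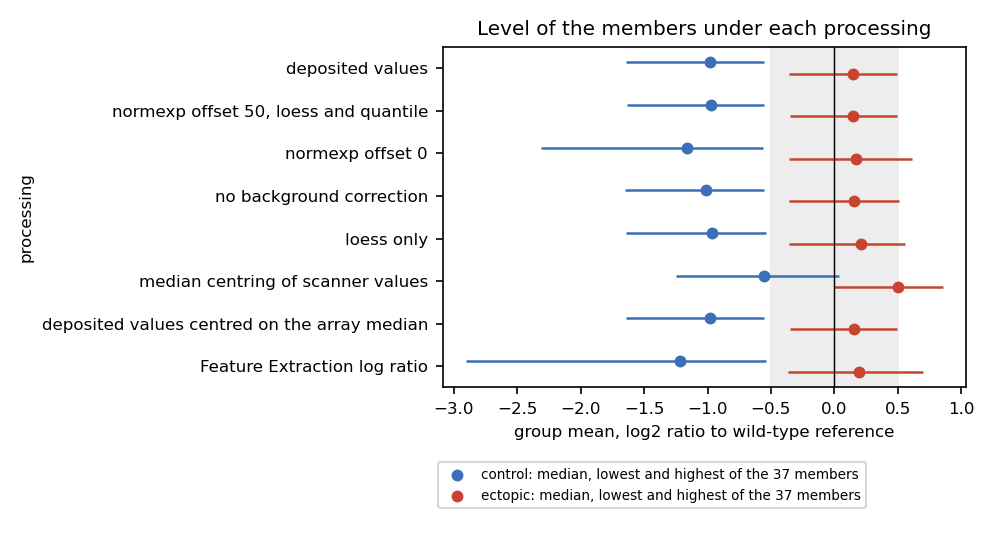
Mean log2 ratio of the 37 members to the wild-type reference in control (blue) and ectopic expression ovaries (red) under 8 treatments of the values. Points are medians over the members, lines run from the lowest to the highest member, and the grey band spans -0.5 to 0.5; with median centring the ectopic expression median moves from 0.15 to 0.50.

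Of the members, 2 could be paired with a gene and 35 are known only by a transcript or clone identifier that the tables used here do not link to a gene. Uhg5 is a noncoding host gene, which carries small nucleolar RNAs (snoRNAs, guides of RNA modification) in its introns. On chromosome arm 2R, it is represented by probe A_09_P166855 for the transcript NR_033158. Its log2 ratios were -0.57, -0.72 and -0.95 in control replicates 1, 2 and 3, and 0.65, 0.80 and 0.00 in ectopic expression replicates 1, 2 and 3. It was thus below the reference on every control array, above it on 2 ectopic expression arrays and equal to it on the third. Its mean was -0.75 ± 0.19 in control and 0.48 ± 0.43 in ectopic expression ovaries (SD, n = 3 per group), or 59.6% and 140% of the reference. The difference was 1.23, a fold of 2.35. With median centring its means were -0.17 and 0.82, the latter outside the band.

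The other named member is sei (seizure), which encodes a voltage-gated potassium channel of the ERG family, known for its role in the excitability of neurons. It also lies on chromosome arm 2R and is measured by A_09_P044596 for the transcript NM_166653. Its log2 ratios were -1.03, -0.985 and -0.935 in control replicates 1, 2 and 3, and 0.07, 0.14 and 0.12 in ectopic expression replicates 1, 2 and 3. The arrays of each group lay close together and the groups were far apart. The means were -0.98 ± 0.05 and 0.11 ± 0.04 (SD, n = 3 per group), or 50.6% and 108% of the reference, a difference of 1.09 or a fold of 2.13. With median centring the means were -0.58 and 0.47.

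Across the 6 arrays, the probes whose log2 ratios correlated most closely with Uhg5 were A_09_P043311, A_09_P073786 and the member A_09_P075766, with a Pearson r of 0.999 for each. These 3 probes differ from one another in level, with control means of -0.15, -0.72 and -0.90 and ectopic expression means of 0.96, -0.07 and 0.46. For sei the closest were A_09_P011396, A_09_P146635 and the member A_09_P078761, also with r of 0.999. The first of these had means of 0.01 and 6.00 and the second of -0.05 and 0.29 in control and ectopic expression ovaries, and neither was well above background on all 6 arrays. The points behind each correlation are 6 arrays in 2 groups, and the correlations are given as a description only.

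Among named genes related to Uhg5, chosen after their values were seen, the host gene Uhg2 had log2 ratios of -0.23, -0.29 and -0.33 on the control arrays and of 0.67, 0.89 and 0.17 on the ectopic expression arrays. Its difference was 0.86 (limma adjusted p = 0.0108), and its mean moved from slightly below the reference to 0.58. The 2 probes of the host gene Uhg3 were below the reference in both genotypes, with differences of 0.15 (limma adjusted p = 0.402) and 0.07 (limma adjusted p = 0.695). Of the 5 named probes for snoRNAs and related RNAs, snoRNA:Psi28S-291 rose by 0.49 (limma adjusted p = 0.0209). The differences of snoRNA:U3:9B and snoRNA:U3:54Aa were 0.44 and 0.41 (limma adjusted p = 0.079 and 0.122), that of scaRNA:MeU5-C46 was 0.27 (limma adjusted p = 0.0921) and that of snoRNA:Psi28S-2566 was -0.02 (limma adjusted p = 0.966).

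The largest difference belonged to the transcript FBtr0085450, which has 2 member probes. The probe A_09_P060981 gave log2 ratios of -1.55, -1.78 and -1.44 in the control and of 0.12, 0.59 and 0.34 in ectopic expression ovaries. It went from 33.3% to 127% of the reference, a difference of 1.94 ± 0.13 (standard error of the group difference, n = 3 per group) and a fold of 3.83. The other probe, A_09_P153370, gave -1.27, -1.20 and -1.58 in the control and -0.10, 0.24 and 0.10 in ectopic expression ovaries, a difference of 1.43 ± 0.12. Both probes were more than 2-fold below the reference on every control array and differed in the size of the step.

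The transcript FBtr0076001, also with 2 member probes, held the member with the lowest control mean. A_09_P079976 gave -1.68, -1.69 and -1.555 in the control and -0.15, -0.085 and -0.22 in ectopic expression ovaries. A_09_P203010 gave -1.58, -1.27 and -1.39, and -0.13, -0.12 and -0.20. Their differences were 1.49 and 1.26, and both had an ectopic expression mean of -0.15, or 90.0% and 90.1% of the reference, and neither passed it on any array. With median centring both ectopic expression means lay above the reference, at 0.17 and 0.19.

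The remaining identifiers with 2 member probes are the cDNA clones SD14423 and SD10530. The SD14423 probes A_09_P104130 and A_09_P051281 gave -1.19, -1.34, -1.91 and -1.12, -1.24, -1.84 in the control, and 0.62, -0.07, -0.34 and 0.71, -0.03, -0.23 in ectopic expression ovaries. Both differences were 1.55. The SD10530 probe A_09_P123020 gave -1.11, -1.28, -1.71 in the control and 0.64, -0.02, -0.23 in ectopic expression ovaries, a difference of 1.5. Its second probe, A_09_P204936, had a difference of 1.11. All 4 probes were highest on ectopic expression replicate 1, and on the other ectopic expression arrays they were below the reference in the deposited values.

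**Figure D3:**
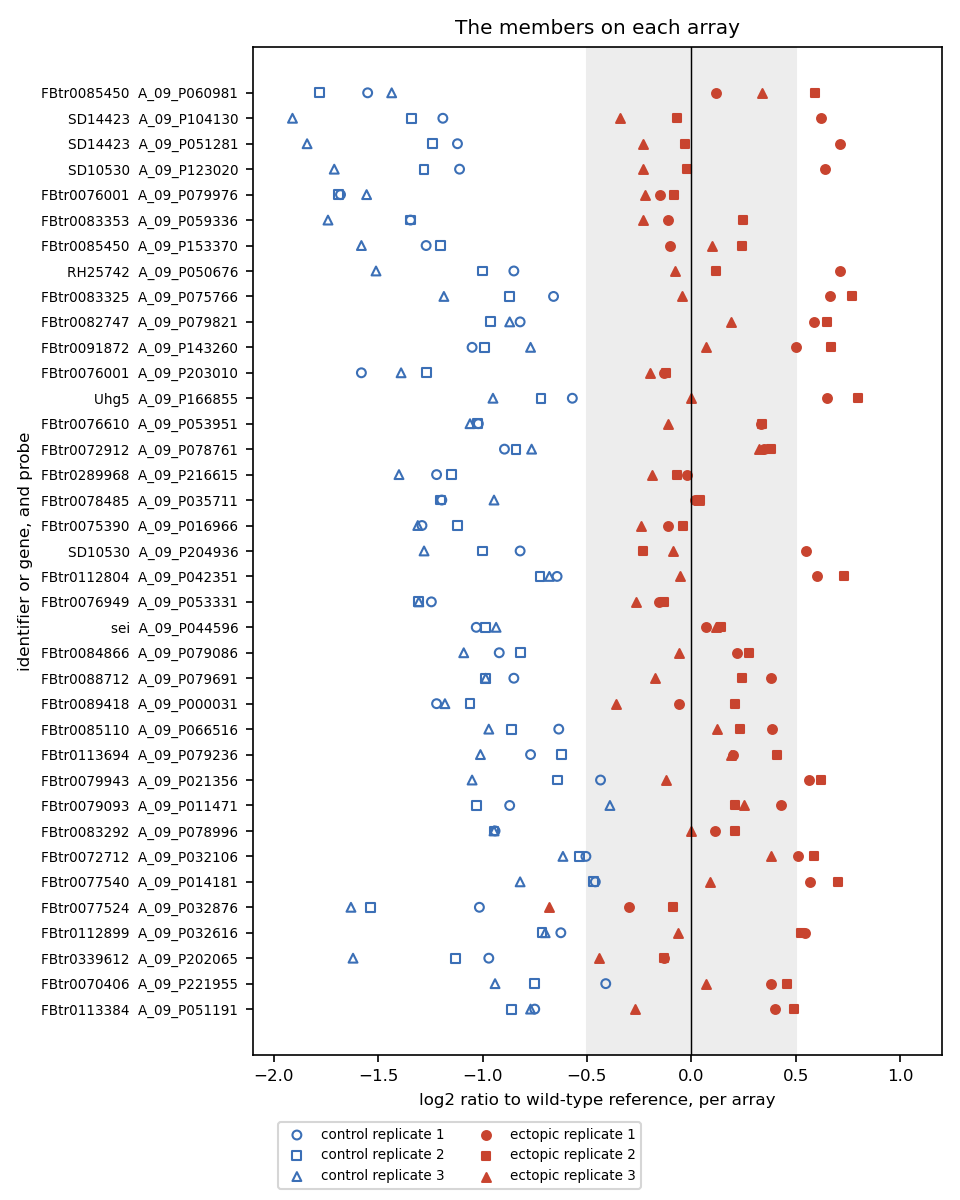
Log2 ratio to the wild-type reference of the 37 members (rows, by gene or identifier and probe, in order of the difference between the groups) on each array. Open blue symbols are control and filled red symbols ectopic expression arrays, with circles, squares and triangles for replicates 1, 2 and 3, and the grey band spans -0.5 to 0.5. In every row all red symbols lie to the right of all blue ones, and the red triangle is the leftmost red symbol in 31 of 37 rows.

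The clone probes differed from most other members in their order over the replicates, a description made after the values were seen. With A_09_P050676 of the clone RH25742, 5 members come from cDNA clones. Their log2 ratios over the 6 arrays correlated with r between 0.984 and 0.9997 in the 10 pairs. The rule separates the groups in every member, so a high r is largely built in and does not set these probes apart. All 5 were highest on ectopic expression replicate 1, where they exceeded replicate 2 by 0.59 to 0.78. In the other 32 members this difference between replicates 1 and 2 ran from -0.47 to 0.22, with no overlap, and the highest array of the group was replicate 2 in 26 of them and replicate 1 in 5. The probes of a clone share a target, and whether the 3 clones come from 1 gene is not given in the sources used here. SD clones supplied 4 of the 37 members and 88 of the 32162 probes (0.274%), and RH clones 1 member and 135 probes (0.42%).

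**Figure D4:**
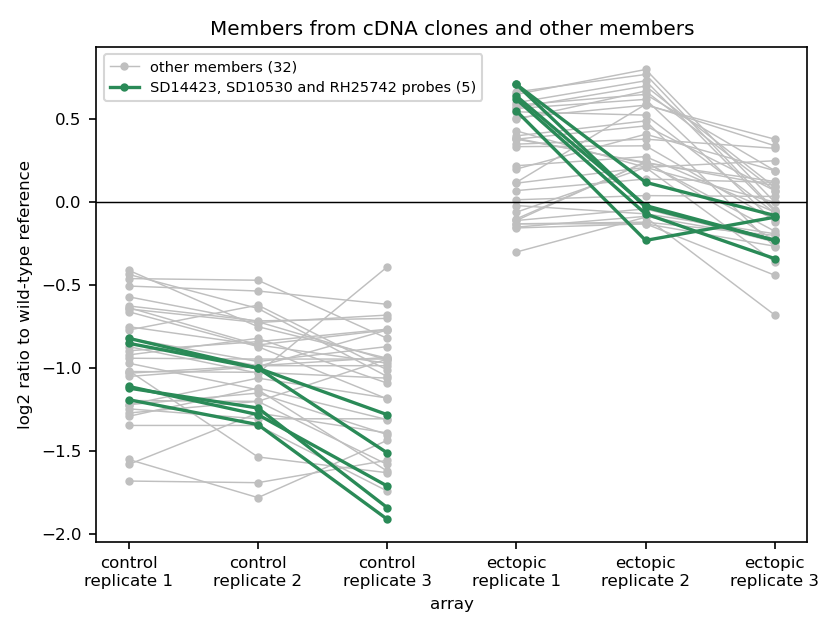
Log2 ratio to the wild-type reference of each member on the 6 arrays, with a line per member within each genotype. Green lines are the 5 probes of SD14423, SD10530 and RH25742 and grey lines are the other 32 members; the green lines fall by 0.59 to 0.78 from ectopic expression replicate 1 to replicate 2, whereas the grey lines change by at most 0.47 upward and 0.22 downward.

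Of all members, 30 (81.1%) are listed by a FlyBase transcript identifier, 5 (13.5%) by a cDNA clone and 2 (5.41%) by a RefSeq accession. Among the 375 probes above the band the shares were 86.4%, 6.93% and 1.07%, and among all probes 67.2%, 3.75% and 1.34%. Assembled sequences named TC made up 14.4% of all probes and 3.2% of the 375, and 0 of the 37 members.

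The ectopic expression arrays differed in the level of the members. The median over the members was 0.38, 0.24 and -0.07 on ectopic expression replicates 1, 2 and 3, and -0.94, -1 and -1.06 on control replicates 1, 2 and 3. Ectopic expression replicate 3 was the lowest of its group for 31 of 37 members (83.8%). Over all 37 members it lay a median of 0.31 below the mean of the other 2. The same replicate was the lowest for 89.3% of the 375 probes above the band and for 41.1% of the 15237 probes that were well above background on all 6 arrays. Control replicate 3 was the lowest of its group for 21 members (56.8%), against 48.8% of the probes above the band and 43.8% of the 15237 detected probes. On that array 33915 Cy5 spots exceeded background clearly by the scanner's flag, more than the 23606 to 25205 elsewhere, and the part of this in the members' values was not tested.

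Within the slides, each with 1 array per genotype, the median difference over the members was 1.21, 1.24 and 1.05 on slides 1, 2 and 3. All differences were positive, a sign that the rule fixes, and the lowest were 0.715, 0.77 and 0.50. A difference of at least 1 was found for 33, 36 and 22 members on slides 1, 2 and 3, and for 18 members on all 3. Without ectopic expression replicate 3, the lowest of its group for most members, the lowest difference of any member was 1.08. Over the omission of each array in turn the lowest was 0.82, in A_09_P202065 without control replicate 3. The median SD over the members was 0.156 in control and 0.247 in ectopic expression ovaries. Over the 15237 detected probes it was 0.107 and 0.126, and over the 375 probes above the band 0.135 and 0.301.

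The reference signal stayed nearly level over the members. Measured in the Cy3 channel, which the rule did not use on its own, the difference between ectopic expression and control arrays had a median of 0.00 over the members and ran from -0.14 to 0.09 on the log2 scale. In the Cy5 channel, taken after loess, the difference was 0.92 to 1.94, with a median of 1.17, and reached at least 1 for 32 members. Cy5 is the numerator of the ratio that the rule used, so this difference largely follows from the rule. In control ovaries, where the members were low, 36 of 37 were still well above background on all 3 arrays, and the exception was detected on 2. The reference signal was well above background on all 6 arrays for all 37. Among the 375 probes above the band these shares were 89.6% and 88.5%. The rule required detected Cy5 and a log2 ratio near 0 in ectopic expression ovaries, so a detected reference largely follows from it. No spot was saturated. The 19 members with 2 or more spots differed between spots by a median of 0.06 and at most 0.30.

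Another probe of the same identifier was on the array for 10 of the 33 identifiers, with 12 such probes in all that were not members. Of these, 11 had a positive difference, and in 6 the ectopic expression arrays were all higher than the control arrays, a separation found for 13.6% of all probes. Only 5 were well above background on all 6 arrays, and 4 of these were separated. The probe A_09_P052306 of RH25742 gave -0.38, -0.62 and -1.27 in the control and 1.06, 0.43 and 0.29 in ectopic expression ovaries. Its difference of 1.35 was close to the 1.37 of the member probe, and its ectopic expression mean of 0.59 lay just above the band.

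For FBtr0079093 the other probe had a difference of 0.76 against 1.06 in the member, and lay above the reference in both genotypes. The 3 other probes of FBtr0070406 had differences of 0.63, 0.48 and 0.27 against 1.00 in the member. For FBtr0076949 the other probe was also detected on all 6 arrays, but its difference was 0.16 against 1.1, and its groups overlapped. The 7 probes that were not well above background on every array had differences between -0.04 and 0.55, with a median of 0.34. Probes of 1 identifier can bind different parts of a transcript, and where they disagree the change of the whole transcript is uncertain.

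**Figure D5:**
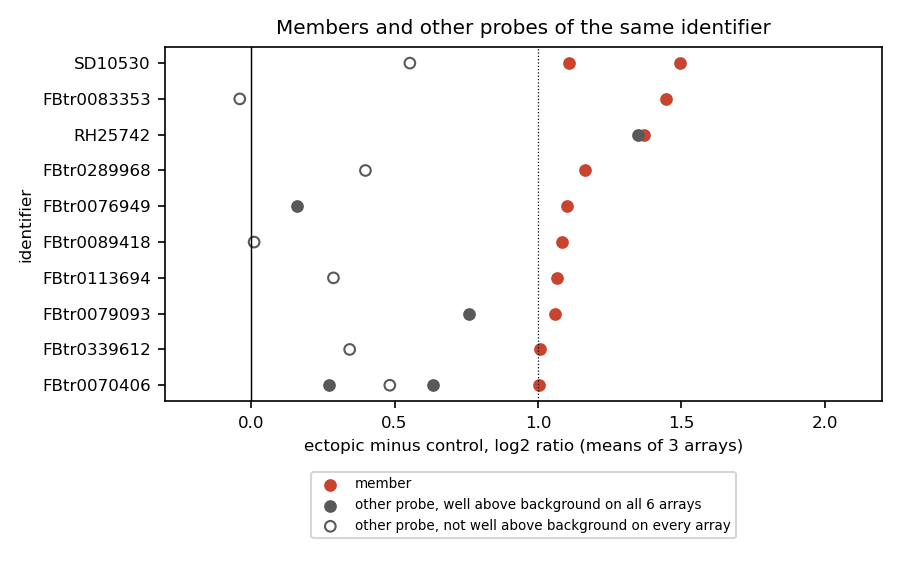
Difference of the mean log2 ratio, ectopic expression minus control (x axis), for the 10 member identifiers that have other probes on the array (rows). Red points are members, dark points are other probes well above background on all 6 arrays and open points are those that were not; 11 of the 12 other probes lie to the right of 0 and 1 lies beyond the dotted line at 1.

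The probes next to each threshold of the rule were as follows. For the difference, the member A_09_P051191 had 1.00 and the excluded A_09_P181370 had 0.97. At the upper edge of the band, the ectopic expression mean was 0.49 in the member A_09_P032106 and 0.52 in the excluded A_09_P111900. At the lower edge the gap was wider, from -0.36 in the member A_09_P032876 to -0.58 in the excluded A_09_P054366. The requirements on separation and detection excluded no probe that met the others.

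Lists of ovarian and signaling genes could be read only where a probe had a gene name, which held for 494 probes (1.54%) and 408 genes. Of 23 genes of the EGFR pathway, 1 was named. This was kek1, a transmembrane protein that is induced by EGFR signaling and inhibits the receptor. Its log2 ratios were -0.20, -0.57 and -0.48 in the control and 0.68, 0.78 and 0.31 in ectopic expression ovaries, and its difference was 1.01 (limma adjusted p = 0.00273). It was no member, since its ectopic expression mean of 0.59 lay above the band. Of 14 genes that the study lists as already known to be expressed in posterior follicle cells, 2 were named and both rose. Besides kek1 this was jim, a zinc finger protein, from 0.21 to 1.79 (limma adjusted p = 0.00332), which started above the reference.

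Of 25 extracellular matrix genes 2 were named, kek1 and LanA, a laminin chain, whose difference was 0.71 (limma adjusted p = 0.0513). Of 17 follicle cell markers 1 was named. This was eya, a nuclear regulator of follicle cell fate, with 2 probes. One was well above background on 0 of 3 control arrays, so its difference of 0.37 (limma adjusted p = 0.028) is uncertain. The other, detected on 2 of 3 control arrays, had a difference of 0.25 (limma adjusted p = 0.148). In both probes the ectopic expression arrays all exceeded the control arrays. Of the 17 JAK/STAT pathway genes, and of the germline, eggshell, yolk, muscle, hemocyte, fat body, testis, heat shock, histone, ribosomal protein and oviduct genes, 0 were named, so the tissue could not be checked against its markers. None of the genes named in these lists was a member.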

How the data were processed

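The authors deposited log2 ratios of Cy5 over Cy3 for each spot, rounded to 2 decimals. Their methods describe background correction by normexp in limma, loess within arrays and quantile normalization between arrays, with an offset not given in the sources used here. They also deposited scanner files with uncorrected median intensities of spots and their surroundings, and a log10 ratio that Feature Extraction 11.0.1.1 had corrected for background and dye before the authors deposited it. Labeling used 322 ng of RNA.

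The deposited log2 ratios were tied to spots by row order, which correlated with the scanner ratios at r of 0.82 to 0.977. Control spots were removed, the spots of a probe averaged, and the genotypes compared with limma 3.58.1 in R 4.3.3, adjusted by Benjamini-Hochberg over 32162 probes. Ratios rebuilt from the intensities with an offset of 50 correlated with the deposited ones at r of at least 0.9997. The limma fit was tested on simulated data with independent noise in each probe, and the rule for the members was not.

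The members and gene lists were chosen with earlier results of these data known. Probes reported were members with a gene name, identifiers with 2 or more member probes, the 2 unnamed members with the largest difference, probes beside each threshold, the 3 probes most correlated with each named member, and named genes of the lists; other probes of the members' identifiers and host genes of snoRNAs were added after their values were seen. Gene names came from the RefSeq table of Release 6, from which no coordinates were taken, since the array design is based on another build. P-values set the group difference against the spread between these pooled preparations, and the number of arrays limits the precision. Alternatives were other background corrections and scalings, the Cy5 channel after loess, filters, other thresholds, the replicate block and leaving out each array.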

Additional observations from a re-analysis of the deposited data

How the results depend on the processing

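The number of probes that met the rule depended on the treatment of the values. It was 66 with a normexp offset of 0 (34 shared with the 37 members), 110 with the Feature Extraction log ratio (31 shared) and 14 with median centring (12 shared). With a band of -0.25 to 0.25 it was 22, and with a difference of at least 1.5 it was 3. Of the members, 14 were called higher with median centring, which called 366 probes in all. The Feature Extraction log ratio called 24 members and 718 probes in all. The median difference over the members was 1.34 with the offset of 0 and 1.43 with the Feature Extraction log ratio, where the median control value was -1.22. With median centring the medians were -0.55 in control and 0.50 in ectopic expression ovaries. The cause of these shifts was not tested. Over 15 settings, 502 of 555 differences of single members moved by less than the spread between replicates, 53 moved further and 0 reversed. Leaving out 1 of 3 arrays cannot move a difference by that much, so the 6 such runs were bound to count among the 502. A filter on dim probes also left the values of the members unchanged. The 53 came mostly with the Feature Extraction log ratio (21), the offset of 0 (14) and median centring (14).

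Leaving out each array in turn gave 27 to 40 probes by the rule, 354 to 546 called higher, 237 to 337 called lower and 26 to 37 members called. The median difference was then 1.08 to 1.23, the median control value -1.03 to -0.95 and the median ectopic expression value 0.11 to 0.31. In all 6 such runs 18 members met the rule, and 10 met it under all 7 other treatments of the values. The replicate number as a block gave 421 probes higher, 269 lower and all 37 members called. Same-numbered arrays, which shared a slide, deviated together with r of 0.248, 0.00251 and 0.101 over all probes. The main fit did not use this pairing, whereas the block fit did. The remaining settings moved no count by over 1.5 times.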
